A study of Mus musculus with 140 samples.

Results

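The microRNA machinery examined here comprised 10 genes: the Argonautes Ago1, Ago2, Ago3 and Ago4, the nucleases Dicer1 and Drosha, the Drosha partner Dgcr8, and the scaffold genes Tnrc6a, Tnrc6b and Tnrc6c. They were chosen by name, and every eCLIP cluster whose midpoint and strand fell within one of them (GENCODE M21 on mm10) was taken from all 70 immunoprecipitation (IP) libraries. Together these libraries held clusters in 31172 genes. All 10 genes had listed clusters in both assays. On mm10, with the strand in parentheses, the Argonautes lie at neighbouring positions apart from Ago2: Ago3 at chr4:126331704-126429556 (-), Ago1 at chr4:126435012-126468583 (-), Ago4 at chr4:126489541-126533472 (-) and Ago2 at chr15:73095844-73184935 (-). The processing genes are Drosha at chr15:12824815-12935291 (+), Dgcr8 at chr16:18253948-18289246 (-) and Dicer1 at chr12:104687742-104751952 (-). The scaffold genes are Tnrc6a at chr7:123123885-123195296 (+), Tnrc6b at chr15:80711313-80941085 (+) and Tnrc6c at chr11:117654289-117763439 (+).

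TDP-43 eCLIP recovers RNA crosslinked to the RNA-binding protein TDP-43, and m6A eCLIP recovers RNA bound by an antibody to the methylated base N6-methyladenosine. Both assays covered striatum and cortex. The R6/2 mice carry a transgene for exon 1 of human mutant HTT (B6CBA-Tg(HDexon1)62Gpb/3J) and were set against non-transgenic (NT) mice, with 4 males and 4 females per genotype at 3 months and no treatment. In a second experiment, C57Bl/6 males were injected into the cerebral ventricles at 5 weeks of age with 500 ug of a TDP-43-lowering antisense oligonucleotide (ASO) or with PBS. Their brains were taken 2 weeks later, at a labelled age of 2 months, and m6A eCLIP was run on 3 ASO and 3 PBS samples. The sample labels name cortex for that experiment and were followed, although the treatment text names striatum. R6/2 models Huntington's disease through an exon 1 fragment rather than the full-length gene. In bulk tissue, fewer cells of a type and less RNA per cell cannot be told apart.

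MicroRNAs are cut from long primary transcripts in the nucleus by Drosha, which is guided by the double-stranded RNA-binding protein Dgcr8. Dicer1 then trims the exported hairpin to a short duplex in the cytoplasm, and one strand is loaded into an Argonaute protein. Argonaute recruits a TNRC6 (GW182) scaffold, which brings in deadenylases that repress the target mRNA. Ago2 is the Argonaute known for slicing perfectly paired targets, and the other Argonautes are loaded with microRNAs as well. The measurements below concern TDP-43 binding to, and m6A on, the mRNAs that encode these proteins, and not the microRNAs themselves.

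The lists hold clusters and no reads, so the depth of each library is unknown. The level of a gene in a library was therefore the number of enriched clusters, those with a p of 0.001 or less and more signal in IP than in input. Libraries listed 133211 to 260739 clusters, of which 4929 to 99049 were enriched. Striatal TDP-43 libraries had the fewest enriched clusters, 6769 to 24430 in R6/2 and 4929 to 24127 in NT mice. In those libraries, 18.8 to 47.4% of listed clusters were intronic in R6/2 mice and 16.1 to 25.7% in NT mice. Region markers followed the labels in NT mice: the summed level of 10 medium spiny neuron genes was 173 to 208 in striatum and 62.9 to 74.0 in cortex by m6A eCLIP, and that of 8 cortical excitatory genes was 37.0 to 61.9 in striatum and 106 to 122 in cortex. Medium spiny neuron genes had fewer m6A clusters in R6/2 striatum (113 to 130 against 187 to 226 in NT). They also had fewer in R6/2 cortex, 33.2 to 49.3 against 61.7 to 73.1 in NT by m6A eCLIP and 2.14 to 8.26 against 21.8 to 32.9 in NT by TDP-43 eCLIP. In cortical TDP-43 eCLIP, 5 of these 10 genes were at 0 in every R6/2 library and 3 in every NT library. The summed m6A level of 6 astrocyte genes was 82.7 to 93.5 in R6/2 and 94.7 to 108 in NT striatum, without overlap. Microglial and vascular markers were at 0 in all striatal TDP-43 libraries. The part of cell composition in the values below was not tested.

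The mRNAs carried their most recurrent clusters at a small number of places, and stretches from recurrent m6A sites that hold GGAC are shown first. A site is a stretch covered by enriched clusters in at least 4 of 16 libraries of a region. Each line gives 30 bases of GRCm38, 5′ to 3′ on the gene's strand, centred on the GGAC nearest the middle of the site. GGAC, the core of the common m6A motif, is in capitals, and its place in a line follows from that centring. All of these sites were present in 8 of 8 R6/2 and 8 of 8 NT libraries of cortex, and likewise of striatum.
Tnrc6c, exon 5 of 22, coding, chr11:117721764-117721793 (+): aatgcagacaaacGGACtgccaaactgggg
Tnrc6a, exon 6 of 24, coding, chr7:123171176-123171205 (+): aagactgacaatgGGACagaggcctgggga
Dicer1, exon 21 of 27, coding, chr12:104702573-104702602 (-): gggtactcctcaaGGACtcttggccccaat
Dgcr8, exon 2 of 14, coding, chr16:18284254-18284283 (-): atgcagaggtaatGGACgttggctctggtg
Ago2, exon 19 of 19, 3′ UTR, chr15:73105566-73105595 (-): GGACtgtgcccgaGGACctgaccgtgggca
Ago4, exon 18 of 18, 3′ UTR, chr4:126492939-126492968 (-): ttgactttctaaaGGACtttccaagaaggg

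At these 6 sites, the median log2 fold of IP over input across cortical libraries ran between 2.30 at Dgcr8 and 4.00 at Tnrc6c. Tnrc6b had 5 m6A sites in all 16 cortical libraries. The one with the highest log2 fold (median 3.26) lay 112 bases past the stop codon and held no GGAC within a window of 101 bases, whereas 3 of the other 4 did. Over all cortical m6A sites of the 10 genes, 37 of 69 had GGAC within that window, against 54.6% of all cortical m6A sites, and 25.6% of all sites had it on the opposite strand.

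The TDP-43 sites shown next are among the most recurrent of the machinery, with the UG-rich motif TGTGT that TDP-43 is known to prefer in capitals where present. The Tnrc6b line is centred on its TGTGT, the others on the middle of the site.
Drosha, exon 35 of 35, at the stop codon, chr15:12935093-12935122 (+): ccggaggaggctgaagacatcaagaagtaa
Tnrc6b, exon 8 of 25, coding, chr15:80880700-80880729 (+): ctgccaataagccTGTGTctgggtggggtg
Tnrc6c, exon 5 of 22, coding, chr11:117723033-117723062 (+): tggtaataggtcagggtctggttggaatga

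The Drosha site was present in all 32 TDP-43 libraries, with a log2 fold of 2.23 to 4.88 (median 3.21). The 30 bases shown end with the stop codon and hold no TGTGT. The Tnrc6b site was present in 31 of 32 libraries (median log2 fold 3.00), and the Tnrc6c site in 16 of 16 cortical and 14 of 16 striatal libraries. TGTGT lay within 101 bases at 6 of 67 cortical TDP-43 sites of the machinery and 2 of 29 striatal ones, against 13.7% and 13.3% of all sites of those regions. On the opposite strand it lay at 9 of the 67 cortical and 6 of the 29 striatal member sites. For all sites the opposite-strand shares were 8.23% in cortex and 7.95% in striatum. A motif match describes the letters in the window and nothing more.

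The Dgcr8 m6A site also spans a microRNA hairpin within exon 2. It was present in all 38 m6A libraries, ASO and PBS included, with a log2 fold of 1.69 to 3.02. In cortex it ran from 18284051 to 18284568 on chromosome 16 and covered both mature arms of miR-1306 completely, 21 of 21 and 23 of 23 bases. It reached 7 of the 22 bases of the miR-3618 3p arm and none of the 5p arm. The mature sequences from RefSeq are given with the seed, bases 2 to 8, in capitals.
mmu-miR-1306-3p: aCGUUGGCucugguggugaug
mmu-miR-1306-5p: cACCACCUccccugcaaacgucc
mmu-miR-3618-3p: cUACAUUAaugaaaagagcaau

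The hairpin lies on the same strand as Dgcr8, so clusters of the host mRNA and of the hairpin could not be separated, and the seeds of these 3 mature forms differ from each other. Drosha with Dgcr8 is known to cut this hairpin within the Dgcr8 mRNA itself. Same-strand annotations also overlap Dgcr8 (Gm24572 and the protein-coding Gm49776), Ago4 (Gm12934), Drosha (Gm47288), Tnrc6a (Gm45846) and Tnrc6b (Gm49512 and Mir5113), and clusters inside those stretches were counted with the member. Gm49776, at chr16:18253948-18258321, covers the recurrent 3′ UTR m6A site of Dgcr8 (chr16:18255211-18255422).

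The map of recurrent cortical sites shows different layouts for the Argonaute and the TNRC6 genes. Their exons differ as well: the longest coding exon has 200 to 316 bases in the Argonautes and 2340 to 2601 in the TNRC6 genes. Outside the TNRC6 family, the longest coding exon also held 57.1% of m6A clusters in Dgcr8 and 45.4% in Dicer1. The layout was not compared with that of other genes, so a link to protein family was not tested. All 15 cortical m6A sites of the Argonautes lay in the 3′ UTR, and 8 of these lay within 1000 bases of the stop codon. Pooled over the 38 libraries, the 3′ UTR held 24 of 24 enriched m6A clusters of Ago1, 311 of 314 of Ago2, 24 of 27 of Ago3 and 397 of 397 of Ago4. The 3′ UTR makes up 62.2%, 80.2%, 81.7% and 56.4% of those mRNAs in the same order.

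**Figure D1:**
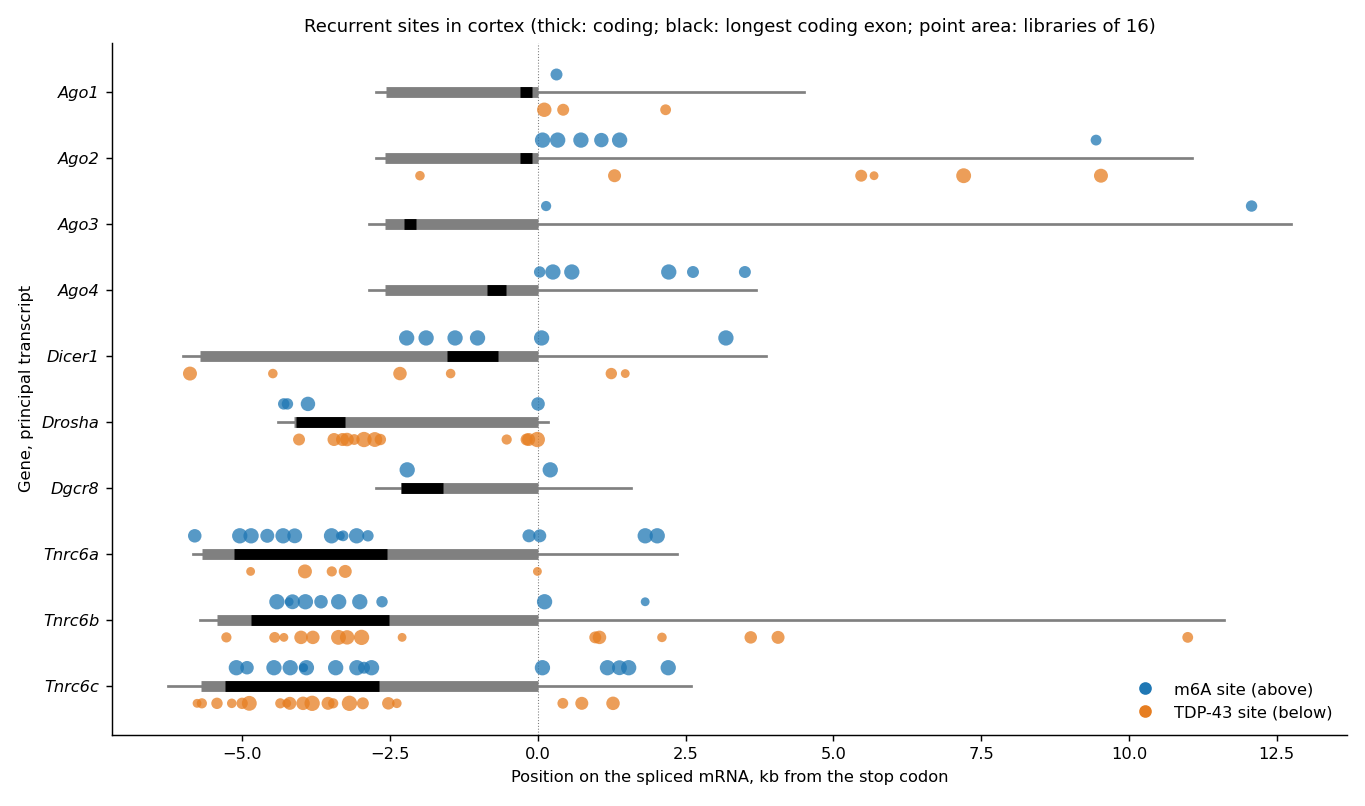
Recurrent m6A sites (blue, above) and TDP-43 sites (orange, below) of cortex along the spliced principal transcript of each gene, in kb from the stop codon; thick bars are coding sequence, black bars the longest coding exon, and point area gives the number of libraries of 16 with the site. The 15 Argonaute m6A sites all lie right of the stop codon, whereas 29 of the 42 m6A sites of the TNRC6 genes lie in the black exons.

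The TNRC6 genes carried their m6A mainly in 1 long coding exon. In cortex 29 of their 42 m6A sites, and 29 of the 30 coding ones, lay in the longest coding exon, which is 2583 bases of Tnrc6a, 2340 bases of Tnrc6b and 2601 bases of Tnrc6c. In striatum it was 22 of the 23 coding ones. This exon held 69.5% of enriched m6A clusters of Tnrc6a (31.6% of the mRNA), 69.8% of those of Tnrc6b (13.5% of the mRNA) and 59.4% of those of Tnrc6c (29.4% of the mRNA). The same exon took most TDP-43 clusters, 80.0%, 60.0% and 61.4% in the same gene order. Of the 40 cortical TDP-43 sites of the TNRC6 genes, 23 lay in it.

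TDP-43 clusters of the Argonautes were also mostly in the 3′ UTR, 43 of 56 in Ago1 and 96 of 110 in Ago2. The recurrent 3′ UTR site of Ago2 lay 7202 bases past its stop codon and was present in 7 of 8 R6/2 and 8 of 8 NT cortical libraries.

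Among the processing genes, m6A clusters of Dicer1 were concentrated in exon 23, its longest coding exon (45.4% of clusters, 8.84% of the mRNA), and 26.0% lay in the 3′ UTR. Its TDP-43 clusters lay in the 5′ UTR in 27 of 95 cases (28.4%), although the 5′ UTR is 2.83% of the mRNA. Dgcr8 had 57.1% of its m6A clusters in the coding part of exon 2, which begins in the 5′ UTR, 20.2% in the 5′ UTR and 22.7% in the 3′ UTR. Drosha had 47.9% of its m6A clusters in the 5′ UTR, which is 6.13% of the mRNA. The longest coding exon held 30.3% of its m6A clusters. Its TDP-43 clusters were almost all coding, with 50 of 269 in the longest coding exon and 216 in the other coding exons. In striatum the TDP-43 site at the Drosha stop codon lay inside an m6A site (chr15:12935013-12935244) that was present in 16 of 16 libraries. In cortex 1 of its 12 TDP-43 sites overlapped an m6A site, whereas 12 of 20 did in Tnrc6c and 4 of 5 in Tnrc6a. Over all members 29 of 67 cortical TDP-43 sites (43.3%) overlapped m6A sites, and 26 of 69 m6A sites (37.7%) overlapped TDP-43 sites. In striatum the shares were 13 of 29 TDP-43 sites (44.8%) and 11 of 68 m6A sites (16.2%). The overlap among all sites of a region was not counted, so these shares have no background to be set against.

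The members spanned nearly the whole range of enrichment. In the m6A assay, 1583 of 1590 listed Tnrc6c clusters were enriched (99.6%), followed by Ago4 (84.3%), Tnrc6a (65.5%), Dicer1 (63.1%), Tnrc6b (57.3%), Dgcr8 (46.3%), Ago2 (45.6%) and Drosha (30.3%). Ago1 (4.51%) and Ago3 (3.91%) lay far below the 39.8% of all m6A clusters. Libraries varied: Tnrc6c ranged between 96.9 and 100% and Ago4 between 55.6 and 100%, so the Tnrc6c range lay at the upper end of that of Ago4, and those of Tnrc6a (46.4 to 82.1%) and Dicer1 (44.4 to 91.3%) largely overlapped. Per kb of exon and library, Tnrc6c had 3.24 enriched m6A clusters, Tnrc6a 1.65 and Dicer1 1.00.

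In the TDP-43 assay the order was different. Drosha led with 269 of 819 listed clusters enriched (32.8%), ahead of Tnrc6c (17.1%) and Tnrc6b (15.7%), against 13.1% of all TDP-43 clusters. Drosha led in each region, with 37.9% in R6/2 and 47.7% in NT cortex and 18.96% in R6/2 and 24.6% in NT striatum. Tnrc6c and Tnrc6b were at 21.2 to 26.4% in cortex and 8.05 to 9.67% in striatum, where Tnrc6b was the higher in R6/2 mice. Over the 32 libraries the share of Drosha ranged widely, between 4.76 and 76.7% (median 32.6%). Dicer1, Ago2, Tnrc6a and Ago1 lay between 7.02 and 8.90%, and Dgcr8 at 1.69%. Ago4, one of the most strongly m6A-enriched members, had 1 enriched TDP-43 cluster of 475 listed over 32 libraries, and Ago3 had 1 of 1154. Ago3 was thus near the bottom in both assays although clusters were listed in it throughout.

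**Figure D2:**
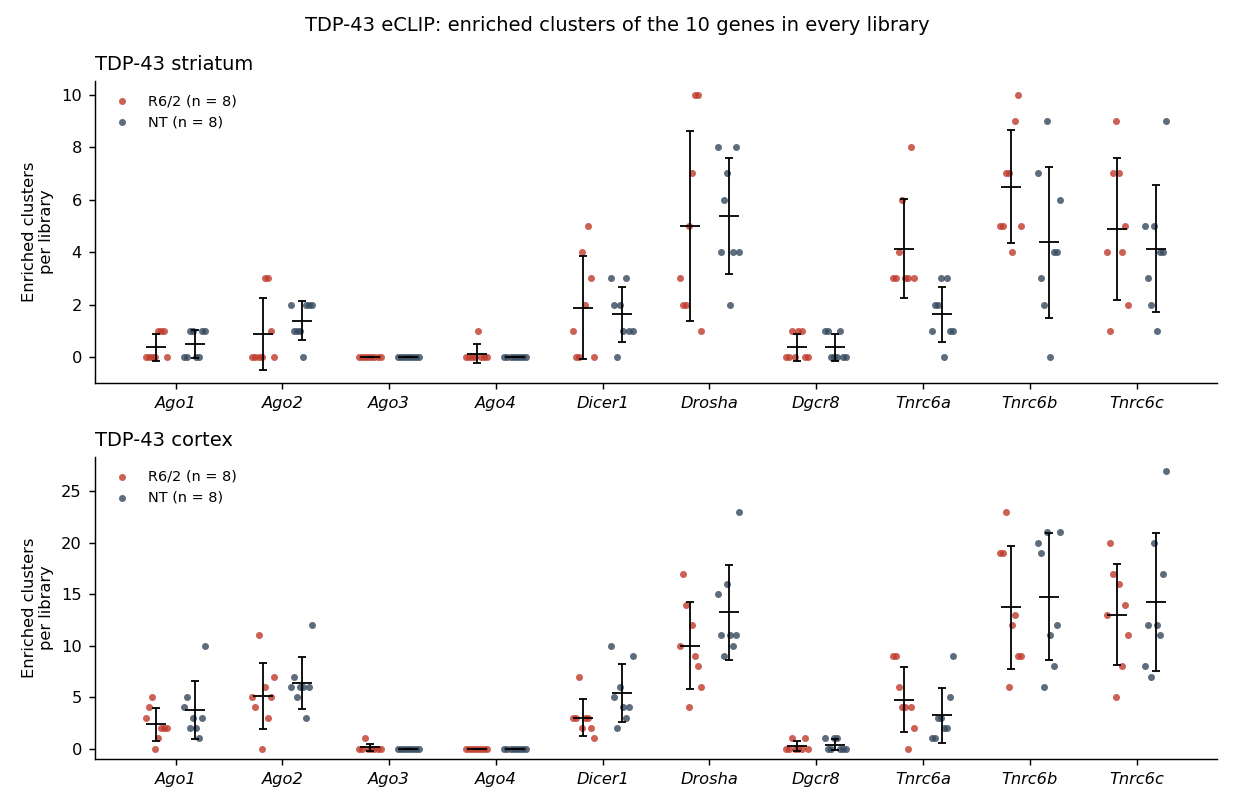
Enriched TDP-43 clusters per library for the 10 genes in striatum (top) and cortex (bottom); points are libraries, R6/2 in red left of NT in blue-grey, with the mean and SD (n = 8 each). Striatal Tnrc6a lies between 3 and 8 in R6/2 and between 0 and 3 in NT libraries.

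The first comparison asked how TDP-43 binding to these mRNAs differed in R6/2 striatum, the region most affected in Huntington's disease. Tnrc6a rose: R6/2 libraries had 3 enriched clusters at the lowest, 3 at the median and 8 at the highest, against 0, 1.5 and 3 in NT libraries. The 2 groups met at 3 clusters, the only value found in both, and after scaling 8 of 8 R6/2 libraries lay above the NT mean (4.28 ± 1.47 against 1.31 ± 0.87, SD, n = 8 each). The log2 change was 1.52 (SE 0.35, limma adjusted p = 0.00735). It was the only call among the 5 members tested, where 13.7% of the 2333 genes tested were called in either direction, 5.96% higher and 7.72% lower. By library, the R6/2 males had 3, 3, 8 and 3 clusters and the R6/2 females 3, 3, 4 and 6, against 0, 3, 1 and 1 in the NT males and 1, 2, 2 and 3 in the NT females. The higher R6/2 values were thus found in both sexes.

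Tnrc6b had 4, 6 and 10 clusters (lowest, median, highest) in R6/2 and 0, 4 and 9 in NT libraries, and 7 of 8 R6/2 libraries lay above the NT mean. Its log2 change of 1.17 (SE 0.40) missed the threshold (adjusted p = 0.0625). Tnrc6c had 1, 4.5 and 9 in R6/2 and 1, 4 and 9 in NT, so these groups fully overlapped (log2 change 0.37, adjusted p = 0.498). Drosha had 1, 4 and 10 in R6/2 and 2, 5 and 8 in NT (-0.14, adjusted p = 0.790). Dicer1 had 0, 1.5 and 5 in R6/2 and 0, 1.5 and 3 in NT (-0.27, adjusted p = 0.804). The 4 Argonautes and Dgcr8 had 0 to 3 clusters in every library and were not tested. The median log2 change was 0.37 over the 5 members and -0.04 over all genes tested. The member median rested on Tnrc6c and was not stable: it was 0.75 to 0.83 when each of 7 libraries was left out in turn, 1.13 with the intronic share as covariate, 0.0028 with all listed clusters and -0.25 at a log2 fold of at least 3.

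Most striatal Tnrc6a clusters lay in exon 6, 25 of 33 in R6/2 and 10 of 13 in NT libraries, and the rest lay elsewhere. The median share of exon 6 per library was 70.8% in R6/2 and 100% in NT mice. All 4 striatal Tnrc6a sites lay in this exon. The site at chr7:123171331-123171495 was present in 7 R6/2 and 4 NT libraries, and the 3 others in 3 or 4 R6/2 and 1 to 4 NT libraries. No single Tnrc6a site passed the test of presence, which over 18561 striatal sites could not call any site alone. The number of listed clusters was 44 at the median in R6/2 and 35 in NT libraries, and after scaling it differed by 0.01 on the log2 scale (adjusted p = 0.961). The intronic share of the libraries moved with genotype, as given above, and the change was also computed with that share taken into account. With that share as a covariate the Tnrc6a change was 1.33 (adjusted p = 0.12), and without the 5 R6/2 libraries at 30% intronic clusters or more it was 1.65 (adjusted p = 0.218). Those 5 were R6/2 male 4 and all 4 R6/2 females, so 3 R6/2 males remained against 8 NT libraries. The size was thus similar while the call was lost. Marker levels moved with genotype in the same libraries: the summed TDP-43 level of 10 medium spiny neuron genes, 1 of them at 0 in both genotypes, was 38.0 to 53.4 in R6/2 and 85.0 to 186 in NT striatum, and the part of this difference was not tested.

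In cortex, TDP-43 clusters were more numerous and 0 of 7 tested members were called, where 7.12% of 3904 genes were (1.46% higher and 5.66% lower). Limma gave no member an unadjusted p under 0.05, where 853 of the 3904 genes had one. Tnrc6a had the most positive change, with 0, 4 and 9 clusters in R6/2 and 1, 2.5 and 9 in NT libraries (0.58, SE 0.51, adjusted p = 0.538). Its range was higher in R6/2 than in NT females but lower in R6/2 than in NT males. The female minus male difference was 2.56 (SE 0.85, limma adjusted p = 0.647). Tnrc6b had 6, 12.5 and 23 in R6/2 and 6, 15.5 and 21 in NT, and Tnrc6c had 5, 13.5 and 20 in R6/2 and 7, 12 and 27 in NT. Drosha had 4, 9.5 and 17 in R6/2 and 9, 11 and 23 in NT (-0.17, SE 0.14, adjusted p = 0.509). For Dicer1 the values were 1, 3 and 7 in R6/2 and 2, 4.5 and 10 in NT (-0.49, SE 0.26, adjusted p = 0.288). Ago2 had 0, 5 and 11 in R6/2 and 3, 6 and 12 in NT (-0.43, adjusted p = 0.582), and Ago1 had 0, 2 and 5 in R6/2 and 1, 3 and 10 in NT (-0.47, adjusted p = 0.530). In all 7 genes the groups overlapped. The member median was -0.17 and that of all genes -0.08, and the member median was 0.15 with the enriched total and 0.12 with the intronic share as covariate.

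The clearest single position in cortex was in Ago1. A TDP-43 site in its 3′ UTR (chr4:126437317-126437374), 2160 bases past the stop codon, was present in 0 of 8 R6/2 and 7 of 8 NT libraries. The exact permutation p, with genotype permuted within sex, was 0.00204 (two-sided), and the adjusted p over all 37174 cortical sites was 0.593. No site of any gene reached an adjusted p under 0.05 in the 4 R6/2 comparisons (0% called), and 1577 cortical TDP-43 sites had an unadjusted p under 0.05. The smallest exact permutation p in each of these comparisons was 0.000408. Over so many sites, a single site at that p cannot pass the adjustment, so the lack of calls decides nothing about single sites. At a Tnrc6b site in exon 5 (chr15:80858676-80858775), 7 of 8 R6/2 and 2 of 8 NT striatal libraries were positive (exact p = 0.0469, adjusted p = 0.788), and in cortex it was 5 R6/2 and 1 NT libraries (exact p = 0.0714). These positions differed in presence in opposite directions, and neither passed the adjustment, which no site could pass alone.

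**Figure D3:**
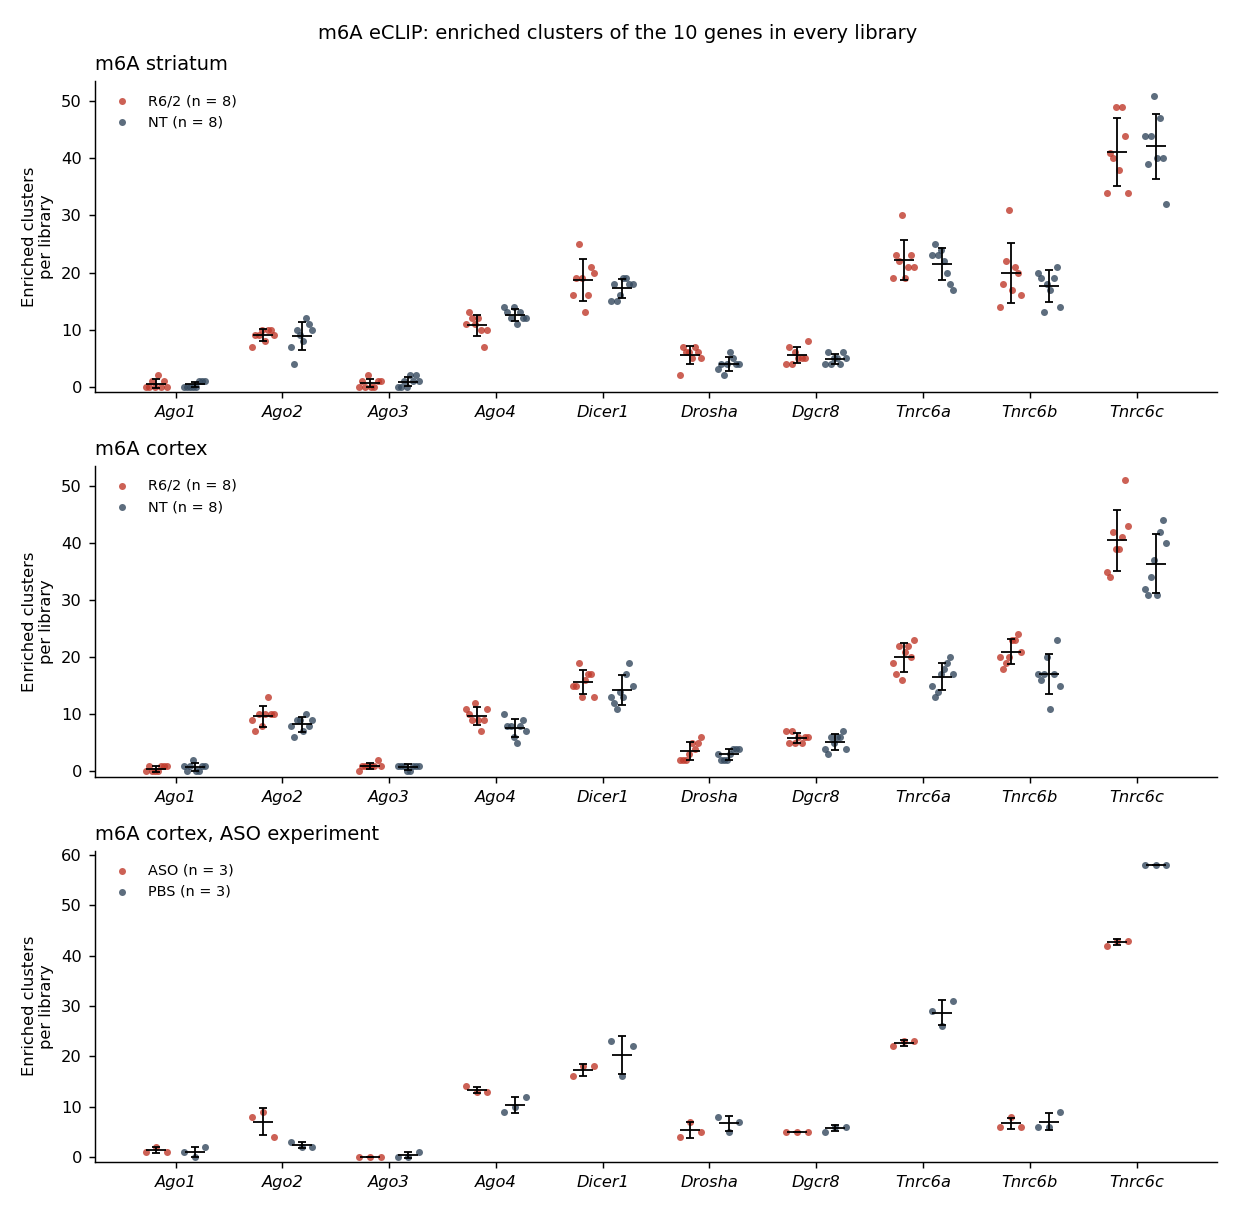
Enriched m6A clusters per library for the 10 genes in striatum (top), cortex (middle) and the ASO experiment (bottom); points are libraries, R6/2 or ASO in red left of NT or PBS in blue-grey, with the mean and SD (n = 8 or 3 each). R6/2 and NT libraries overlap for every gene at 8 against 8. ASO and PBS libraries separate for Ago2, Ago4, Tnrc6a and Tnrc6c at 3 against 3, where 97.8% of intervals are shared within a treatment. How many of all genes separate in this way was not counted.

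The m6A comparison of the same tissues called 0 of 8 members in striatum (against 9.66% of 9734 genes, 3.89% higher and 5.76% lower) and 0 of 8 in cortex (against 6.36% of 9071 genes, 2.44% higher and 3.92% lower). At an unadjusted p under 0.05 limma gave 1 member in each region, beside 2246 of all 9734 genes in striatum and 1917 of 9071 in cortex. In striatum this was Ago4, with 7, 11 and 13 clusters in R6/2 and 11, 12.5 and 14 in NT libraries (-0.28, SE 0.10, adjusted p = 0.0865). Only 1 of 8 R6/2 libraries lay above the NT mean for Ago4. Of its 6 striatal sites, all in the 3′ UTR, the one nearest the end of the mRNA (chr4:126489684-126489767) was present in 5 R6/2 and 8 NT libraries (exact p = 0.143), and the other 5 differed by at most 1 library. Drosha had 2, 6 and 7 clusters in R6/2 and 2, 4 and 6 in NT striatum (0.35, SE 0.18, adjusted p = 0.233). Without R6/2 female 1, which had 2 clusters, the Drosha change was 0.50 and passed the threshold (adjusted p = 0.0332). The other 6 genes differed by 0.10 or less in either direction. Tnrc6c, for example, had 34, 40.5 and 49 clusters in R6/2 and 32, 42 and 51 in NT striatum. Ago1 and Ago3 had 0 to 2 clusters and were not tested. The member median was 0.03 and that of all genes 0.02.

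In cortex all 8 tested members had a positive m6A change, where 4780 of all 9071 genes did, and no member was called. The member median of 0.09 stood beside 0.02 over all genes. The gene with an unadjusted p under 0.05 was Tnrc6b, with 18, 20.5 and 24 clusters in R6/2 and 11, 17 and 23 in NT libraries (0.19, SE 0.09, adjusted p = 0.228). Ago4 had 7, 9.5 and 12 in R6/2 and 5, 8 and 10 in NT (0.23, SE 0.12, adjusted p = 0.309), and Tnrc6a had 16, 20.5 and 23 in R6/2 and 13, 17 and 20 in NT (0.14, SE 0.08, adjusted p = 0.313). In each of these the groups overlapped. Dicer1 (0.01), Tnrc6c (0.03), Drosha (0.07), Ago2 (0.08) and Dgcr8 (0.09) had smaller changes.

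**Figure D4:**
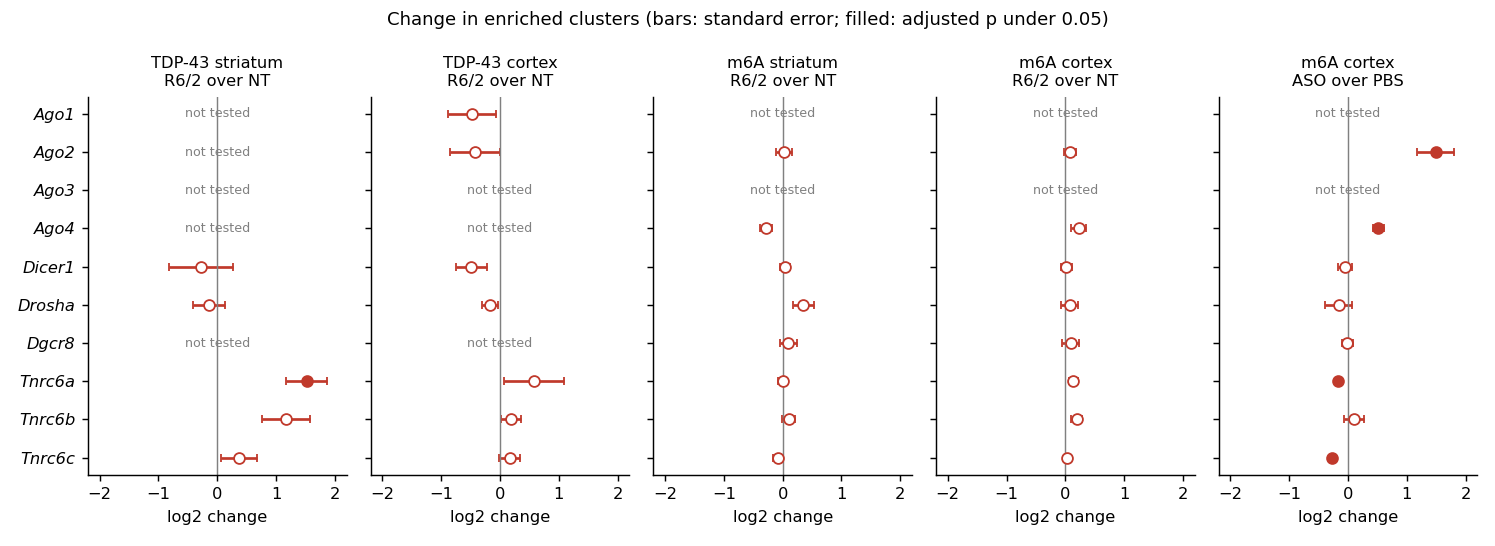
Log2 change in enriched clusters (R6/2 over NT, or ASO over PBS) for each member and comparison, with limma's standard error as bars; filled points have an adjusted p under 0.05. Filled points are Tnrc6a in striatal TDP-43 eCLIP (1.52) and Ago2, Ago4, Tnrc6a and Tnrc6c in the ASO experiment.

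Whether the R6/2 change differed between regions or sexes was tested directly, and no member passed. For TDP-43 the striatal minus cortical difference was 1.10 for Tnrc6a (SE 0.62, adjusted p = 0.572) and 1.13 for Tnrc6b (SE 0.49, adjusted p = 0.387), where 0.0658% of 3040 genes were called. For m6A it was -0.50 for Ago4 (SE 0.17, adjusted p = 0.303), where 0.258% of 9312 genes were called. The Tnrc6a call in striatum was therefore not shown to differ from cortex. The female minus male difference called 0 genes in each of the 4 comparisons. Its largest value among members was 2.56 for Tnrc6a in cortical TDP-43 eCLIP (SE 0.85, adjusted p = 0.647), where R6/2 females had 4 to 9 clusters and R6/2 males 0 to 4, against 1 to 3 in NT females and 2 to 9 in NT males.

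Between TDP-43 ASO and PBS libraries, the number of m6A clusters differed on 4 of the 8 tested members, where 30.2% of 10149 genes were called. Tardbp, which encodes TDP-43, had 7 to 9 enriched m6A clusters in ASO and 17 to 25 in PBS libraries (-1.10, adjusted p = 0.00386). In this experiment 97.8% of the intervals of each treatment were identical in its 3 libraries, so the spread within a treatment covers only the scoring of shared intervals and the p-values are too small. In the R6/2 and NT groups at most 0.0278% of intervals were so shared. How many of all genes separate between groups was not counted, here or in the other comparisons. The summed m6A level of the medium spiny neuron genes was 96.1 to 97.6 in ASO and 93.3 to 101 in PBS libraries. That of the 8 cortical excitatory genes, 1 of them at 0 in both treatments, was 135 to 146 in ASO and 124 to 131 in PBS libraries, without overlap, and the part of this difference was not tested.

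Both Argonautes that were called rose. Ago2 had 8, 9 and 4 enriched clusters in ASO libraries and 3, 2 and 2 in PBS libraries, which do not overlap (log2 change 1.49, SE 0.32, adjusted p = 0.0182). Ago4 had 14, 13 and 13 in ASO and 9, 10 and 12 in PBS libraries, also without overlap (0.52, SE 0.09, adjusted p = 0.0105). Listed clusters numbered 19 in each ASO and 16 in each PBS library for Ago2, and 17 in each ASO and 15 in each PBS library for Ago4. The genes called higher were 14.3% of those tested and the genes called lower 15.9%.

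The 2 scaffolds that were called fell. Tnrc6c had 42, 43 and 43 clusters in ASO and 58 in each PBS library (-0.28, SE 0.03, adjusted p = 0.0037). Tnrc6a had 22, 23 and 23 in ASO and 29, 26 and 31 in PBS libraries (-0.17, SE 0.04, adjusted p = 0.0327). Neither gene overlapped between treatments. The number of listed clusters, enriched or not, moved the same way: Tnrc6c had 43 in each ASO and 58 in each PBS library, and Tnrc6a had 32 in each ASO and 40 in each PBS library. The share of listed clusters that were enriched was 99.2% in ASO and 100% in PBS for Tnrc6c, and 70.8% in ASO and 71.7% in PBS for Tnrc6a. The other members overlapped and were not called: Dicer1 had 16 to 18 in ASO and 16 to 23 in PBS, Drosha 4 to 7 in ASO and 5 to 8 in PBS, Dgcr8 5 in each ASO and 5 to 6 in PBS, and Tnrc6b 6 to 8 in ASO and 6 to 9 in PBS libraries. The member median was -0.03 and that of all genes -0.002.

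**Figure D5:**
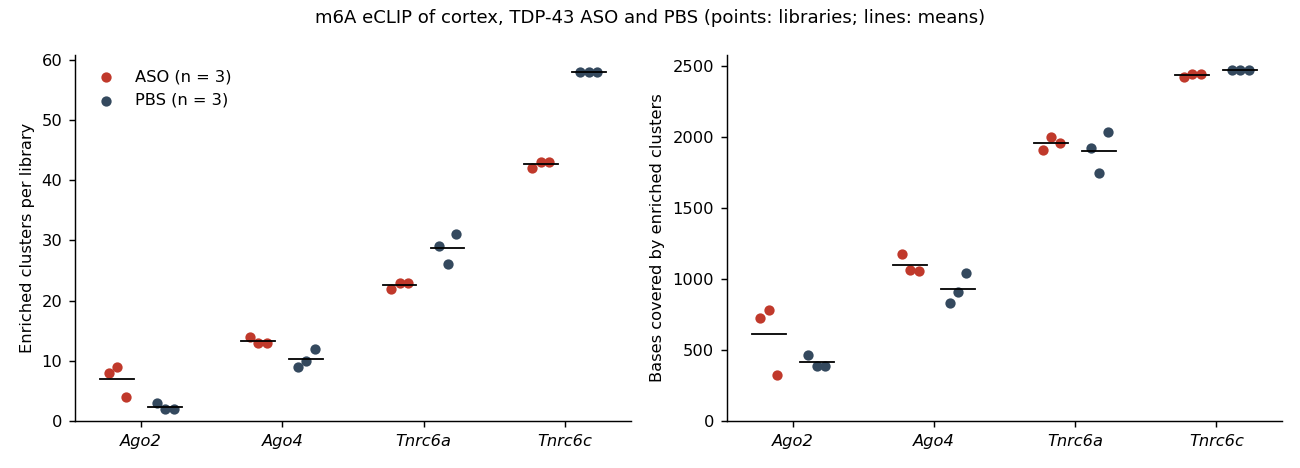
Enriched m6A clusters (left) and bases covered by them (right) in each ASO (red) and PBS (blue-grey) library for the 4 called genes; lines are means of 3 libraries. Tnrc6c clusters separate (42 to 43 against 58), whereas its covered bases nearly coincide (2425 to 2448 against 2471).

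The length of sequence covered differed less than the number of clusters. Tnrc6c clusters covered 2425, 2448 and 2448 bases in ASO libraries and 2471 in each PBS library. The mean Tnrc6c cluster was 56.9 to 57.7 bases long in ASO and 42.6 in PBS libraries, so fewer and longer clusters covered nearly the same stretch. Tnrc6a covered 1910, 1998 and 1962 bases in ASO and 1922, 1747 and 2039 in PBS libraries, so the treatments overlapped. Ago2 covered 724, 783 and 324 bases in ASO and 467, 385 and 385 in PBS libraries, which overlap. The mean Ago2 cluster was 81 to 90.5 bases long in ASO and 156 to 192.5 in PBS libraries. Ago4 covered 1175, 1065 and 1055 bases in ASO and 832, 907 and 1042 in PBS libraries, so Ago4 again did not overlap. Measured by covered bases, 0 of 8 members were called, with changes of 0.45 for Ago2 (adjusted p = 0.551), 0.24 for Ago4 (0.232), 0.04 for Tnrc6a (0.676) and -0.02 for Tnrc6c (0.635).

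At 3 of the 50 member sites, a position was present in every library of a treatment and in none of the other. An Ago2 3′ UTR site (chr15:73106490-73106579), 376 bases past the stop codon, was found in 3 ASO and 0 PBS libraries. In Tnrc6c exon 5, chr11:117721287-117721341 and chr11:117721436-117721446 were found in 0 ASO and 3 PBS libraries. Such sites numbered 1339 among all 31142, and 3 libraries against 3 allow an exact p of 0.1 at best.

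Between regions of NT mice, TDP-43 clusters on the machinery were fewer in striatum, as they were on most genes. Of 6 tested members 4 were called lower and 0 higher, where 42.4% of 3277 genes were called lower and 9.09% higher. The medians were -0.95 for the members and -0.64 for all genes. Ago2 had 0, 1.5 and 2 clusters in striatum and 3, 6 and 12 in cortex, with no overlap (-1.44, SE 0.34, adjusted p = 0.0022). Tnrc6c had 1, 4 and 9 in striatum and 7, 12 and 27 in cortex (-1.01, SE 0.23, adjusted p = 0.0021). Tnrc6b had 0, 4 and 9 in striatum and 6, 15.5 and 21 in cortex (-1.35, SE 0.44, adjusted p = 0.0179), and Drosha 2, 5 and 8 in striatum and 9, 11 and 23 in cortex (-0.52, SE 0.18, adjusted p = 0.0219). The other 2, Dicer1 (-0.90) and Tnrc6a (-0.30), were also below 0 and were not called. With the number of enriched clusters per library as a covariate, 0 members were called. Both regions were dissected from animals of the same cohort, and since the labels do not tie a striatal to a cortical library, the fit treated them as separate samples.

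For m6A, 1 of 8 members differed between NT regions, where 18.8% of 9272 genes were called (9.67% higher and 9.16% lower). Ago4 had 11, 12.5 and 14 clusters in striatum and 5, 8 and 10 in cortex, without overlap in the raw counts, and 8 of 8 striatal libraries lay above the cortical mean (0.54, SE 0.11, adjusted p = 0.0010). The 5 members next in size were Tnrc6a (0.19), Drosha (0.21), Dgcr8 (-0.20), Tnrc6b (-0.11) and Ago2 (-0.11), none of them called. By covered bases the Ago4 difference was 0.22 (adjusted p = 0.0790). In females only it was 0.43 (adjusted p = 0.0837), and there Tnrc6a was called instead (0.39, adjusted p = 0.0137).

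The other genes of the pathway were taken from a list of 45 processing, loading, silencing and decay factors. In striatal TDP-43 eCLIP 1 of 18 tested rose and 0 fell, beside 5.96% and 7.72% of all genes. The gene that rose, Ddx5, an RNA helicase of the Drosha complex, averaged 10.98 ± 3.40 scaled clusters in R6/2 and 4.08 ± 1.26 in NT mice (1.33, SE 0.23, adjusted p = 0.000993). In cortical TDP-43 eCLIP 0 of 22 were called, beside 7.12% of all genes. At an unadjusted p under 0.05 there were 4 of the 22, beside 853 of all 3904 genes. In striatal m6A eCLIP 2 of 26 rose and 1 fell, beside 3.89% and 5.76% of all genes. Limd1, a LIM-domain partner of Argonaute, averaged 9.68 ± 1.69 in R6/2 and 6.14 ± 1.39 in NT mice (0.63, adjusted p = 0.00174), and Ddx5 had a change of 0.54 (adjusted p = 0.0394). The gene that fell was Khsrp, a splicing regulator that also binds microRNA precursors (-0.60, adjusted p = 0.0238); its mean of under 4 clusters places it outside the rule for named genes, and it was named after its values were seen. In cortical m6A eCLIP 0 of 23 were called, beside 6.36% of all genes. At an unadjusted p under 0.05 there were 5 of the 23, beside 1917 of all 9071 genes. The list medians were -0.21, -0.18, 0.08 and 0.13 in these 4 comparisons.

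After ASO treatment 5 of 23 listed genes had more and 2 had fewer m6A clusters, beside 14.3% and 15.9% of all genes, so the 7 called stood near the 30.2% of all genes. Pan3, a deadenylase subunit, changed by 0.47 (adjusted p = 0.00462) and Xpo5, the exporter of microRNA hairpins, by 0.43 (adjusted p = 0.0112). Cnot2, a subunit of the CCR4-NOT deadenylase, changed by -0.37 (adjusted p = 0.0226). The p-values carry the limit given for this experiment. Between NT regions, 6 of 19 listed genes had fewer TDP-43 clusters in striatum and 0 had more, beside the 42.4% of all genes called lower. Among those averaging 4 clusters or more were Tut7, a terminal uridylyltransferase (-2.24, adjusted p = 0.000153), the RNA editing enzymes Adar (-1.65, adjusted p = 0.0040) and Adarb1 (-0.96, adjusted p = 0.000618), and Pum2, an RNA-binding repressor (-0.65, adjusted p = 0.0290). The other 2 averaged under 4 clusters and were named after their values were seen: the RNA helicase Ddx17 (-2.09, adjusted p = 0.00215) and Zswim8, a subunit of the ubiquitin ligase known for target-directed microRNA decay (-1.52, adjusted p = 0.000963). For m6A, 2 of 24 had more clusters in striatum and 0 had fewer, beside 9.67% and 9.16% of all genes.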

How the data were processed

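The authors called clusters with CLIPper on mm10, per the study's methods, and scored each against the paired input library. The deposited values are a −log10 p, at most 400, and a log2 fold of IP over input. The 70 input libraries have no file among those used here. The base of the study's own fold threshold is not given in the sources used here. Members and gene lists were chosen with earlier results of these data known.

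Clusters were assigned to GENCODE M21 genes by midpoint and strand, and a feature by the principal transcript. Enriched clusters (p of 0.001 or less, fold above 0) per gene were divided by median-ratio size factors. With 0.5 added, log2 values were fitted with limma 3.58.1 in R 4.3.3 (eBayes with trend, two-sided, sex as covariate except in the ASO experiment) for genes with at least 2 in 50% of libraries. Benjamini-Hochberg adjustment covered all genes tested, and genes with a value under 0.05 were called. Standard errors are those of the fit, and scaled levels are size-factor-normalized numbers of clusters. Site presence was compared by exact permutation within sex. Per the study's methods, libraries of a group came from separate mice.

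All members were described. Of the pathway genes called, the 4 with the largest change were named per comparison if they averaged 4 clusters or more. One result under this rule is not reported here. The fit was tested on simulated data. Alternatives covered thresholds, covered bases, scaling, the filter, covariates, each sex and each library left out.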

Additional observations from a re-analysis of the deposited data

Results flagged for a closer look

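In 56 groups of 8 libraries examined, 3 values stood apart from the rest of their group by Dixon's test, which chance alone does in about 1 of 20 groups. Tnrc6c TDP-43 clusters in NT male 4 of striatum had a scaled level of 7.18 (9 clusters), with the next library at 3.70. Drosha m6A clusters in R6/2 female 1 of striatum had 1.90 (2 clusters), with the next library at 4.96. Dgcr8 m6A clusters in R6/2 male 4 of striatum had 8.96 (8 clusters), with the next library at 5.99. No difference of the R6/2 change between regions or sexes passed the threshold for any member.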

How the results depend on the processing

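For TDP-43 in striatum, the number of members called (1) was 0 at a log2 fold of at least 3, by covered bases, with the intronic share as covariate, in males only and in libraries under 30% intronic. It was 2 with pseudocount 2, quantile normalization, the enriched total as covariate and the replicate block, where Tnrc6b joined (adjusted p = 0.0369 with the block). Leaving out single libraries gave 1 to 2, and Tnrc6b joined without NT male 1, NT male 4 or NT female 4. For striatal m6A (0 called), a p of 1e-10 or less gave 1 (Ago4, -0.47, adjusted p = 0.0166) and single libraries 0 to 1, with Ago4 called without R6/2 male 1 (adjusted p = 0.0315) and Drosha without R6/2 female 1. Both cortical R6/2 comparisons stayed at 0.

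After ASO (4 called), the number was 0 at a log2 fold of at least 3 and by covered bases, 2 at a p of 1e-10 or less, 1 with the enriched total as covariate, and 2 to 3 without single libraries. Tnrc6a was lost without any of PBS 1, PBS 3, ASO 1, ASO 2 or ASO 3 and with the replicate block (adjusted p = 0.0659), and Ago2 without PBS 2, PBS 3, ASO 1 or ASO 2. Tnrc6a reversed by covered bases (0.041), and Dgcr8 reversed at a p of 1e-10 or less (0.38, adjusted p = 0.0182).

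For TDP-43 between NT regions (4 called), the number was 1 with all listed clusters (a higher one, none of the 4), 2 at a log2 fold of at least 3, 0 at a p of 1e-10 or less, 2 when scaled by the enriched total, 0 with that total as covariate, 1 in males only, 1 in females only and 3 to 4 without single libraries, Drosha being lost without striatum male 1 or cortex male 4. Drosha was also lost by covered bases (-0.13, adjusted p = 0.339) and under quantile normalization (-0.16, adjusted p = 0.447). With the replicate block Dicer1 joined (5 called, adjusted p = 0.0413). Reversals were Ago2 (0.079) and Tnrc6b (0.019) with all listed clusters, Drosha at a log2 fold of at least 3 (0.30) and Tnrc6b with the enriched total as covariate (0.63). For m6A between NT regions (1 called), it was 0 at a log2 fold of at least 3 and by covered bases, 2 with the intronic share as covariate (Tnrc6a joined, 0.23, adjusted p = 0.0446) and 1 without any single library. In females only it was 1, but Tnrc6a (0.39, adjusted p = 0.0137) and not Ago4 (0.43, adjusted p = 0.0837). The cause was not tested.

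Medians over the members tested moved as well. For striatal TDP-43 (0.37) the 7 libraries whose removal gave 0.75 to 0.83 were NT male 2, NT females 1 and 4, R6/2 males 1, 2 and 3 and R6/2 female 4. The sign changed for striatal m6A at a log2 fold of at least 3 (-0.23), after ASO by covered bases (0.079) and with the enriched total as covariate (0.19), and for TDP-43 between NT regions with all listed clusters (0.040). The cortical TDP-43 median was -0.44 under the p limit of 1e-10.

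Correlations of same-numbered libraries were not all above 0.1 in any comparison, and the fit did not pair them. For m6A between NT regions they ranged from 0.025 to 0.0883. Such correlations cannot show whether striatal and cortical libraries of the same number shared an animal. The fit of all listed clusters and that with the intronic share were not run for the ASO experiment, where neither varied within a treatment. At a p of 1e-10 or less no member had enough striatal TDP-43 clusters to be tested. Contrasts between regions and sexes stayed at 0 calls under 5 alternatives chosen after seeing the data.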

Other observations

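Of 5928 genes that averaged 4 or more enriched clusters, the 2 whose m6A cluster numbers followed each of 3 members most closely over the 32 R6/2 and NT m6A libraries were Cldn12 (Pearson r = 0.73) and Chd9 (0.72) for Ago2, Lig3 (0.64) and Pcdhb19 (0.64) for Dicer1, and Zkscan16 (0.75) and Nexmif (0.73) for Tnrc6b. The libraries span 2 regions, 2 genotypes and both sexes, so these values are a description of shared levels.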
